A study of Mus musculus with 16 samples.

Results

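The transferases described here are the glutathione, UDP-glucuronosyl and sulfo transferases of mouse liver, taken as every gene symbol on the array that belongs to the Gst, Mgst, Ugt1, Ugt2, Ugt3 or Sult families, whatever its signal. The array named 49 such symbols with 70 probes. Of these, 46 were tested among 24319 symbols in all: 23 of 24 glutathione transferases, 13 of 13 UDP-glucuronosyltransferases and 10 of 12 sulfotransferases. Gstt4, Sult1c1 and Sult3a1 were too dim to be tested.

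These enzymes carry out conjugation, the step that joins a water-soluble group to drugs, hormones, bile acids and reactive metabolites so that they can leave the cell. Glutathione transferases add the tripeptide glutathione to electrophiles. UDP-glucuronosyltransferases sit in the endoplasmic reticulum and add glucuronic acid from UDP-glucuronic acid. Cytosolic sulfotransferases add sulfate from the donor PAPS. In mouse liver many of these genes are expressed at different levels in males and females.

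Liver RNA was measured on 16 Agilent single-colour arrays. All mice were male BALB/c, aged 6 to 8 weeks at the start of the 4 weeks of treatment. They were either wild type (WT) or Lcn2-/-, lacking the secreted protein lipocalin 2 throughout the body. The Lcn2-/- line was made on a mixed 129/Ola and C57BL/6 background and backcrossed to BALB/c. The CCl4 groups received carbon tetrachloride, a hepatotoxin that hepatocytes convert to a radical, at 0.5 ml/kg in corn oil by intraperitoneal injection 2 times a week for 4 weeks, with collection of the liver 48 h after the final injection. Control mice received corn oil. WT mice gave 4 control and 5 CCl4 arrays, and Lcn2-/- mice gave 3 control and 4 CCl4 arrays. The comparisons ask how these enzymes respond to repeated CCl4 injury, and whether loss of Lcn2 alters their level or that response. The labels do not state that each array is a separate animal, so p-values measure the spread between these arrays.

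Between 51.6% and 60.9% of gene spots were well above background on an array, no spot was saturated, and r between arrays of a group was 0.974 to 0.992 across symbols. The Lcn2 probe gave 10.5 to 12.2 on Lcn2-/- arrays and 13.8 to 17.6 on WT arrays (log2 signal), with no overlap. All 7 hepatocyte markers tested were well above background. Slide 1 held every control and WT CCl4 replicate 1, and slide 2 held the other CCl4 arrays. Slide and treatment therefore cannot be told apart in Lcn2-/-, and in WT only replicate 1 separates them. With slide as a block, a WT response therefore rests on WT CCl4 replicate 1 against the WT controls, the same quantity as within slide 1, and an Lcn2-/- response takes its slide term from that 1 array, so neither is separate support. Within each slide the WT arrays lay in the first row and the Lcn2-/- arrays in the second, except WT CCl4 replicate 1, so genotype and row cannot be told apart in most comparisons. The control replicates numbered 3 of both genotypes stood closest to the CCl4 arrays, and counts are also given without them.

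A minority of the transferases passed the test under CCl4, mostly sulfotransferases and UDP-glucuronosyltransferases in WT and mostly sulfotransferases in Lcn2-/-. In WT liver 3 of 46 members were higher and 8 were lower (limma, adjusted p under 0.05), or 6.52% and 17.4%, against 8.06% and 8.64% of all symbols. Of the 3 higher calls, Sult2a1 and Sult6b1 passed the filter on dim probes only through CCl4 arrays, so their entry into the test is not independent of the result. In Lcn2-/- liver 2 were higher and 4 lower, or 4.35% and 8.7%, against 6.58% and 5.59% of all symbols, and both higher calls involve controls at background. These Lcn2-/- counts lie near the shares over all symbols and are not particular to the transferases. Over the 42 members well above background on all 16 arrays, 1 was higher and 8 were lower in WT, and 0 were higher and 4 lower in Lcn2-/-, where 17.1% and 11.9% of the 19242 symbols passing that filter were called in either direction. The median change of the 46 was -0.05 in WT and -0.03 in Lcn2-/- on the log2 scale, beside -0.03 and -0.02 over all symbols. The median absolute change was 0.26 and 0.31, beside 0.27 and 0.29 over all symbols. Sulfotransferases moved most (median absolute change 0.90 in WT), UDP-glucuronosyltransferases leaned downward, and glutathione transferases stayed near 0.

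These counts depend on scaling and slide. With each array scaled to its upper-quartile signal, which moved the median of all symbols to -0.16 in WT and -0.14 in Lcn2-/-, the split was 2 higher and 19 lower in WT and 1 higher and 7 lower in Lcn2-/-, while 21.1% and 13.4% of all symbols were called. With slide as a block it was 2 higher and 3 lower in WT and 1 higher and 2 lower in Lcn2-/-, against 5.33% and 1.75% of all symbols, and within slide 1 it was 1 higher and 4 lower in WT, against 2.89%. With array weights it was 4 higher and 15 lower in WT and 4 higher and 5 lower in Lcn2-/-, against 28.8% and 28.7%. Without the controls numbered 3 it was 4 higher and 9 lower in WT and 3 higher and 5 lower in Lcn2-/-, against 22.3% and 15.1%. Leaving out WT control replicate 1 lowered the WT count from 11 to 6 (10.2% of all symbols), and leaving out Lcn2-/- control replicate 1 or 2 lowered the Lcn2-/- count from 6 to 1 or 2 (6.93% and 6.92% of all symbols).

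**Figure D1:**
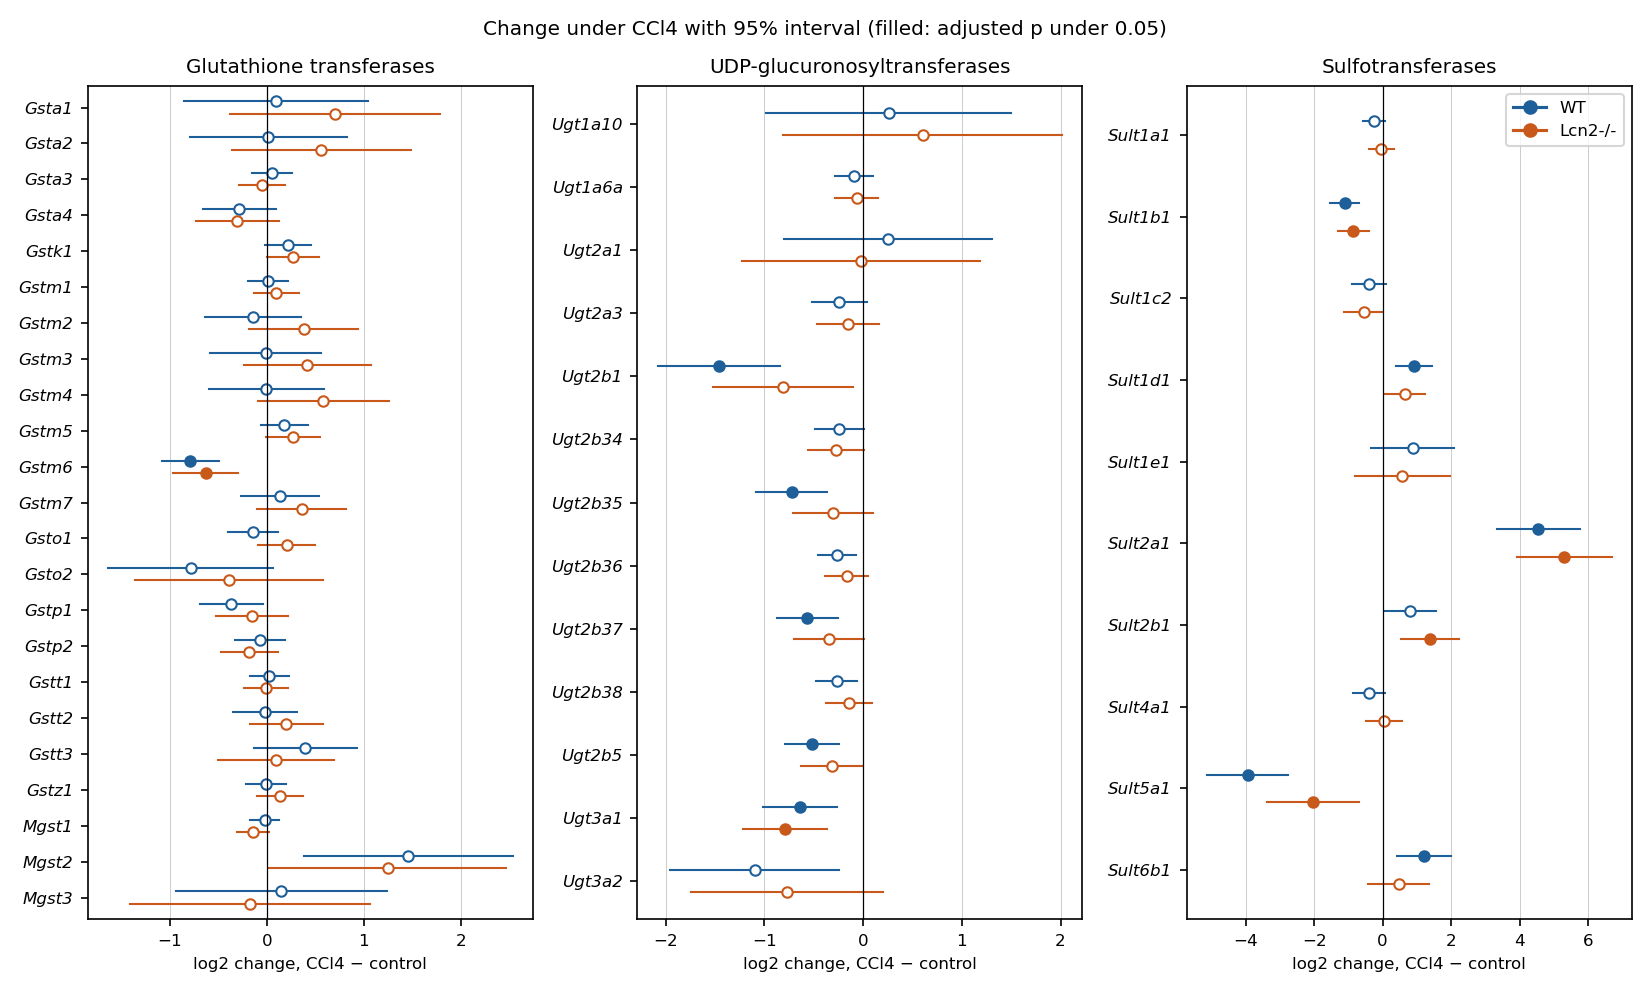
Each point is the fitted log2 change of 1 transferase under CCl4 with its 95% interval, in WT (4 control and 5 CCl4 arrays) and Lcn2-/- (3 and 4), and filled points passed adjusted p under 0.05. Sult2a1 lies far to the right and Sult5a1 far to the left in both genotypes, the Ugt2b genes lie left of 0, and most glutathione transferases lie near 0; the points of Sult2a1, Sult2b1 and Sult6b1 rest on signals at background.

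Among the sulfotransferases, Sult2a1, which sulfates bile acids and hydroxysteroids such as dehydroepiandrosterone, went from background to a clear signal under CCl4 in both genotypes. On the WT control arrays its log2 signal was 2.96, 2.95, 2.95 and 2.91, and on the Lcn2-/- control arrays 2.94, 2.92 and 2.93, none well above background. On the WT CCl4 arrays it was 7.81, 6.77, 5.31, 8.77 and 8.79. On the Lcn2-/- CCl4 arrays it was 8.52, 9.02, 7.85 and 7.56. All 9 CCl4 arrays were above all 7 controls. Since the controls give only a bound, Sult2a1 was at least 6.03-fold higher in WT (limma, adjusted p = 9.44e-05). In Lcn2-/- it was at least 6.57-fold higher (adjusted p = 1.35e-04). Each bound compares the CCl4 mean with the dimmest signal still counted as detected on each control array. A signal can exceed that level and still not count as detected, so the bound is nominal. Sult2a1 passed the filter only through CCl4 arrays and its controls lie at background, so these p-values are not independent support. The probe, at chr7:14381602-14381661 (mm9), also names Sult2a4, and the 2 genes cannot be separated here. In bulk tissue a change in the number of cells of a type and a change in RNA per cell cannot be told apart.

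Sult5a1, a cytosolic sulfotransferase whose substrates are little known, was abundant in control liver and fell under CCl4, further in WT than in Lcn2-/- by the fitted values. Its log2 signal was 14.09, 14.23, 12.23 and 12.94 in WT control and 7.68, 9.70, 10.32, 9.74 and 9.68 in WT CCl4. It was 14.20, 15.01 and 13.69 in Lcn2-/- control and 11.42, 11.83, 12.99 and 12.83 in Lcn2-/- CCl4. The treated and control arrays did not overlap in either genotype. Sult5a1 was 15.4-fold lower in WT (log2 change -3.94, SE 0.55, adjusted p = 2.3e-04) and 4.08-fold lower in Lcn2-/- (-2.03, SE 0.63, adjusted p = 0.0494). The WT call held under all 29 alternatives. Within slide 1 the difference was -5.69, from WT CCl4 replicate 1 alone, the lowest of the 5. The Lcn2-/- call lies at the threshold and was lost in 13 of 28 alternatives, among them without Lcn2-/- control replicate 1 (adjusted p = 0.118) or 2 (0.195). It was also lost without WT control replicate 1 or 4, WT CCl4 replicate 2, 4 or 5, or any Lcn2-/- CCl4 array, and with no filter on dim probes or with the replicate block, over a range of adjusted p from 0.0114 to 0.195 across alternatives. The value was -4.21 with the slide block (adjusted p = 0.0316).

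Sult1b1, which sulfates phenols and thyroid hormones, fell in both genotypes. Its signal was 14.43, 14.18, 14.11 and 14.42 in WT control, 13.27, 12.99, 12.98, 13.01 and 13.62 in WT CCl4, 14.14, 14.33 and 14.25 in Lcn2-/- control, and 12.81, 13.26, 13.67 and 13.80 in Lcn2-/- CCl4. Every CCl4 array lay below every control. The fall was 2.16-fold in WT (-1.11, SE 0.19, adjusted p = 0.0011) and 1.81-fold in Lcn2-/- (-0.85, SE 0.22, adjusted p = 0.0195). With the slide block it was -1.02 in WT (adjusted p = 0.0958; 0.0388 within slide 1) and -0.73 in Lcn2-/- (adjusted p = 0.401). The Lcn2-/- call was also lost without Lcn2-/- control replicate 1 (adjusted p = 0.0511) or 2 (0.0800) and with only the compared groups fitted (0.0945).

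Sult1d1, which sulfates catecholamines and other amines, was higher under CCl4. It measured 13.27, 13.09, 13.25 and 13.91 in WT control and 14.88, 13.88, 13.61, 14.45 and 14.64 in WT CCl4, so that the highest control exceeded the lowest 2 CCl4 arrays. In Lcn2-/- it measured 13.93, 13.62 and 13.89 in controls and 14.80, 14.22, 14.45 and 14.38 under CCl4. The change was 1.88-fold in WT (0.91, SE 0.25, adjusted p = 0.0204) and 0.65 on the log2 scale in Lcn2-/- (adjusted p = 0.152, not called). A second Sult1d1 probe gave 0.43 in WT and did not pass (adjusted p = 0.116), and the call was also lost with upper-quartile scaling (0.80, adjusted p = 0.0503), with only the compared groups fitted (0.0599) and without WT control replicate 1 (0.0639) or 2 (0.0735). It was 1.50 with the slide block (adjusted p = 0.035), and within slide 1 the same 1.50 did not pass (0.0574), both resting on WT CCl4 replicate 1.

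The calls of Sult6b1 and Sult2b1 rest on signals near background. Sult6b1 measured 2.90, 3.18, 4.25 and 3.79 in WT control, none well above background, and 4.23, 5.50, 3.84, 4.74 and 5.38 in WT CCl4, 3 of 5 well above background (adjusted p = 0.0366, lost in 13 of 28 alternatives, among them without WT control replicate 1, 2 or 4 or WT CCl4 replicate 2, 4 or 5). In Lcn2-/- every array was at background, at 2.95, 2.95 and 2.92 in controls and 2.91, 2.93, 3.87 and 3.91 under CCl4 (adjusted p = 0.511). Neither comparison gives a fold.

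Sult2b1, which sulfates cholesterol and pregnenolone, was called higher under CCl4 in Lcn2-/- (adjusted p = 0.0363, lost in 11 of 27 alternatives, among them without Lcn2-/- control replicate 1 or 2 or Lcn2-/- CCl4 replicate 1, 3 or 4), although none of those arrays was well above background. It measured 2.91, 2.90 and 3.85 in Lcn2-/- control and 4.98, 4.07, 4.47 and 4.88 in Lcn2-/- CCl4. In WT it measured 5.07, 3.64, 5.19 and 4.34 in controls, 1 of 4 well above background. Under CCl4 Sult2b1 measured 5.31, 6.12, 4.89, 4.89 and 5.57 in WT, 4 of 5 well above background (adjusted p = 0.139). With most of those controls not well above background, no fold is given. The other sulfotransferases did not pass in either genotype. The estrogen sulfotransferase Sult1e1 changed by 0.88 and 0.58 (WT and Lcn2-/- log2 change), the phenol sulfotransferase Sult1a1 by -0.26 and -0.04, Sult1c2 by -0.39 and -0.55, and the mainly neural Sult4a1 by -0.40 and 0.03.

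**Figure D2:**
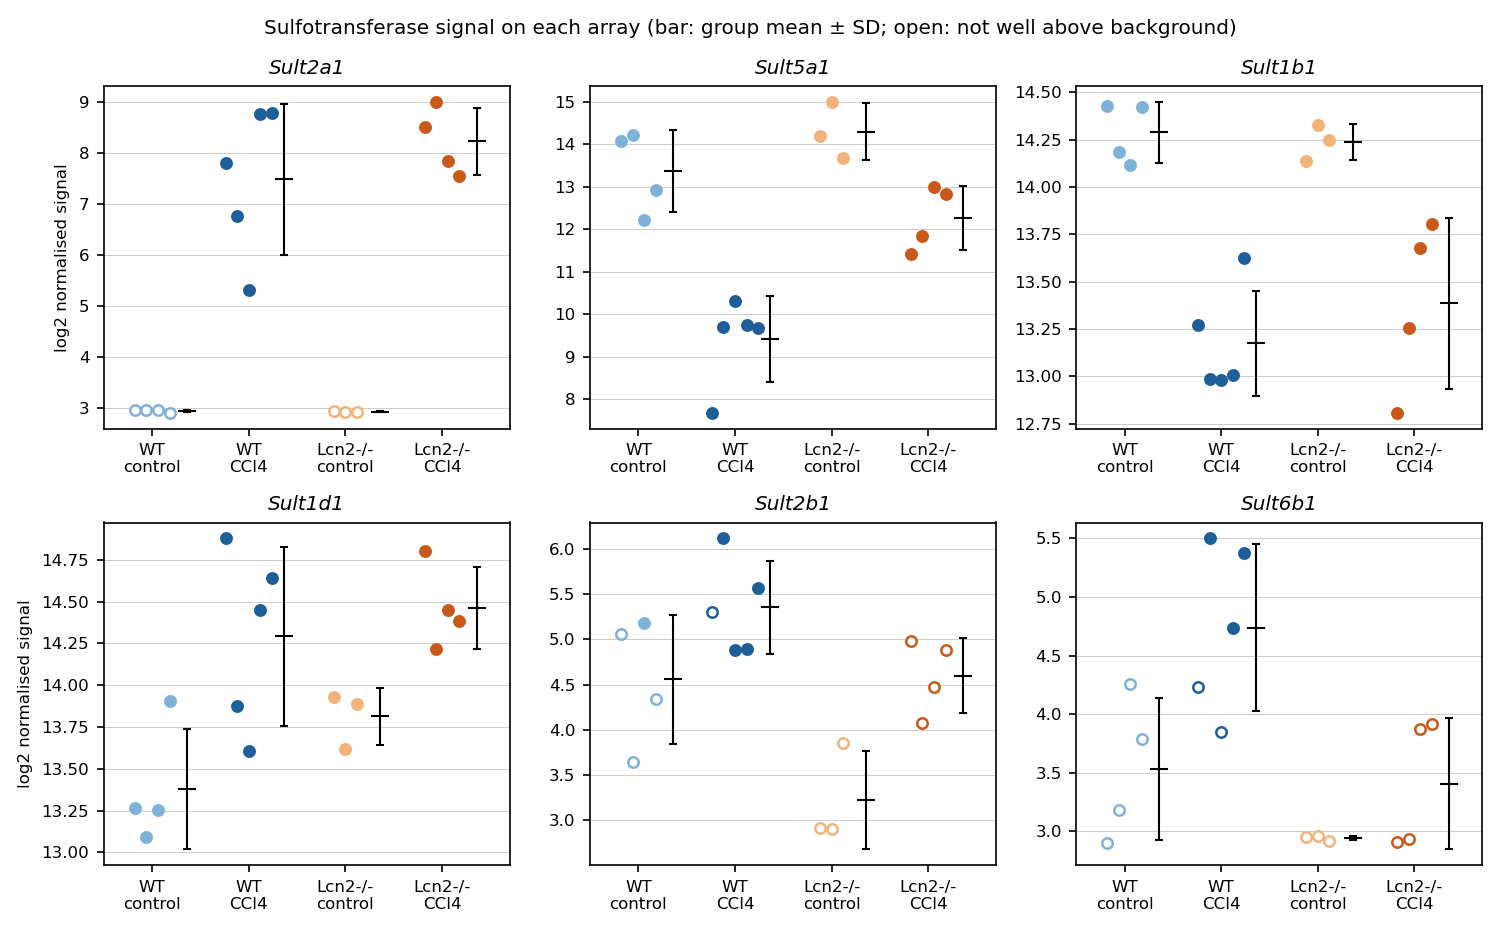
Each panel shows the log2 normalised signal of 1 sulfotransferase on all 16 arrays by group, with the group mean and SD, and open points were not well above background. Sult2a1 stands above its controls on all 9 CCl4 arrays, Sult5a1 falls to between 7.68 and 10.32 in WT CCl4 but lies between 11.42 and 12.99 in Lcn2-/- CCl4, and most Sult2b1 and Sult6b1 points are open.

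Among the UDP-glucuronosyltransferases, 5 of 13 fell in WT and none rose, against 8.64% of all symbols lower and 8.06% higher, and 4 of the 5 were Ugt2b genes, the subfamily that glucuronidates steroids and bile acids. All 7 Ugt2b genes had negative fitted changes in WT, from -1.46 to -0.24 (median -0.51), and all 7 had negative changes in Lcn2-/-, from -0.81 to -0.14 (median -0.30), where none passed. These signs were the same under every scaling tried and with the slide block. With upper-quartile scaling all 7 passed in WT, where 21.1% of all symbols were called, and with the slide block 0 did, where 5.33% were.

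Promoters are shown for the 4 Ugt2b genes that fell in WT, which lie in 1 cluster on chromosome 5, and for the 2 sulfotransferases that fell. They are the 150 bases just before the most upstream start in RefSeq (GRCm38.p6), written 5′ to 3′ on the gene's strand, and 41 of the 46 tested members had an entry. Capitals mark AGGTCA or its reverse complement TGACCT, a half-site bound by nuclear receptors.
Ugt2b1, chr5:86926504-86926653, minus strand: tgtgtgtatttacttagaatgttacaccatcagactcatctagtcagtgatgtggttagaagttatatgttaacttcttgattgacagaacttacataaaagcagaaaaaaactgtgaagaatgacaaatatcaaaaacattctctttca
Ugt2b35, chr5:87000710-87000859, plus strand: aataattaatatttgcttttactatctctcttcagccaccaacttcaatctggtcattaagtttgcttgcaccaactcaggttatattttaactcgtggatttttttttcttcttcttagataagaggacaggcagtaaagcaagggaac
Ugt2b37, chr5:87254789-87254938, minus strand: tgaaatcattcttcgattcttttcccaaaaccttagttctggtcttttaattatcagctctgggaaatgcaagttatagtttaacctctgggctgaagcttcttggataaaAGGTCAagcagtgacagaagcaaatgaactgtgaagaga
Ugt2b5, chr5:87140341-87140490, minus strand: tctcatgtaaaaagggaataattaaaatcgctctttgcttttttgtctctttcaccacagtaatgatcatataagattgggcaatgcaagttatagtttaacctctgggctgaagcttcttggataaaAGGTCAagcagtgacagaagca
Sult1b1, chr5:87538196-87538345, minus strand: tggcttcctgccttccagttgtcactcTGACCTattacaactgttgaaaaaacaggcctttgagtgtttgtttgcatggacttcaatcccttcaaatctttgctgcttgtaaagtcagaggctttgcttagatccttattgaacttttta
Sult5a1, chr8:123158281-123158430, minus strand: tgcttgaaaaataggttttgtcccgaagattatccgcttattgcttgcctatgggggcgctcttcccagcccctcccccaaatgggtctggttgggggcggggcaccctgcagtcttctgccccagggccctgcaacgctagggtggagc

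AGGTCA, sought on both strands, was present in 7 of 41 member promoters (17.1%) and in 8.45% of 27025 promoters of the same length. Of the 7 Ugt2b promoters 4 held it, at 39 bases before the start in Ugt2b37, 22 in Ugt2b5 and 25 in Ugt2b36 and Ugt2b38. These 4 share a run of 22 bases, gataaaaggtcaagcagtgaca, that includes the match, so they are not independent instances. Ugt2b1 and Ugt2b35, which fell further than Ugt2b37 and Ugt2b5 by the fitted values, lack these letters in the window, and so does Sult5a1, while Sult1b1 has TGACCT 123 bases before its start. Ugt2b37 and Ugt2b38 were identical at 128 of 136 aligned bases (94.1%), Ugt2b37 and Ugt2b5 at 66.2%, and Ugt2b1 and Ugt2b37 at 47.5%.

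Other motifs were sought in the same way. GTTAAT, a half-site of HNF1, was in 6 of 41 member promoters (14.6%) and 3.77% of all, and Ugt3a1 and Sult1d1 were among those with it. TGACNNNGC, the core of the antioxidant response element, was in 3 (7.32%) and 6.82%, GCGTG, the dioxin response core, in 6 (14.6%) and 20.8%, and TTCNNNGAA, the STAT palindrome, in 1 (2.44%) and 4.14%. A match describes letters in a window and not a bound site.

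Ugt2b1 had the largest fall of the UDP-glucuronosyltransferases. Its log2 signal was 16.06, 16.30, 15.20 and 15.61 in WT control and 14.11, 14.64, 14.93, 14.23 and 13.75 in WT CCl4, without overlap. In Lcn2-/- it was 15.84, 16.45 and 15.26 in controls and 15.42, 14.92, 15.06 and 14.78 under CCl4, with overlap. The fall was 2.75-fold in WT (-1.46, SE 0.29, adjusted p = 0.0031), and the change in Lcn2-/- was -0.81 (adjusted p = 0.128). With the slide block the WT change was -1.68 and did not pass (adjusted p = 0.0688; 0.137 within slide 1).

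Ugt2b35 measured 15.24, 15.25, 14.87 and 15.04 in WT control and 14.40, 14.71, 14.27, 14.16 and 14.35 in WT CCl4. In Lcn2-/- it measured 14.91, 15.26 and 14.59 in controls and 14.90, 14.36, 14.38 and 14.83 under CCl4. The groups were separate in WT, where the fall was 1.65-fold (-0.72, SE 0.17, adjusted p = 0.0084), and overlapped in Lcn2-/- (-0.30, adjusted p = 0.332). A second Ugt2b35 probe also passed in WT, at -0.70. With the slide block the WT change was -0.70 (adjusted p = 0.188; 0.202 within slide 1).

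Ugt2b37 measured 16.55, 16.15, 16.09 and 16.29 in WT control and 15.78, 15.75, 15.86, 15.71 and 15.44 in WT CCl4. In Lcn2-/- it measured 16.28, 16.44 and 15.93 in controls and 15.97, 15.54, 16.07 and 15.91 under CCl4. Again the WT groups were separate, with a 1.48-fold fall (-0.56, SE 0.14, adjusted p = 0.0156), and the Lcn2-/- groups overlapped (-0.34, adjusted p = 0.195). The WT call was lost with the replicate block (-0.50, adjusted p = 0.0523) and with the slide block (-0.50, adjusted p = 0.281). It was also lost within slide 1 (-0.50) and without WT control replicate 1 (adjusted p = 0.0664). Ugt2b5 fell 1.43-fold in WT (-0.51, SE 0.13, adjusted p = 0.0135) and changed by -0.32 in Lcn2-/- (adjusted p = 0.18). The WT call of Ugt2b5 was lost in 4 of 29 alternatives, with the replicate block, with the slide block, within slide 1 and without WT control replicate 1. The probes of Ugt2b37 and Ugt2b5 are identical at 46 of 55 overlapping bases, so their signals may not be separate measurements. Ugt2b34, Ugt2b36 and Ugt2b38 did not pass in WT, at -0.24, -0.26 and -0.27. The Ugt2b36 probe also names Ugt2b37, so it may not measure Ugt2b36 alone.

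Ugt3a1, of the subfamily that uses sugar donors other than UDP-glucuronic acid, was the UDP-glucuronosyltransferase family member that fell in both genotypes. It measured 14.17, 14.30, 14.03 and 14.44 in WT control, 13.05, 13.52, 13.84, 13.84 and 13.75 in WT CCl4, 14.19, 14.23 and 14.06 in Lcn2-/- control, and 13.25, 13.73, 13.48 and 13.02 in Lcn2-/- CCl4. All CCl4 arrays lay below all controls. The fall was 1.55-fold in WT (-0.63, SE 0.18, adjusted p = 0.0233) and 1.73-fold in Lcn2-/- (-0.79, SE 0.20, adjusted p = 0.0184). With the slide block it was -1.19 in WT (adjusted p = 0.0121) and -1.48 in Lcn2-/- (adjusted p = 0.0191), both resting on WT CCl4 replicate 1, the CCl4 array of slide 1. The WT call was lost without WT control replicate 1, 2 or 4 or WT CCl4 replicate 2 (adjusted p 0.0501 to 0.0675), and the Lcn2-/- call without Lcn2-/- control replicate 1 (0.0675) or 2 (0.0736) or with only the compared groups fitted (0.0508).

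The remaining glucuronosyltransferases did not pass in either genotype. Ugt3a2 changed by -1.10 in WT (adjusted p = 0.0757) and -0.77 in Lcn2-/-, Ugt1a10 by 0.26 and 0.60, and Ugt1a6a, a phenol-conjugating form, by -0.10 and -0.06. Ugt2a1 changed by 0.25 and -0.02 and Ugt2a3 by -0.24 and -0.15. The chosen probes of Ugt1a6a and Ugt1a10 also name other Ugt1a forms, and that of Ugt2a1 also names Ugt2a2. A second Ugt1a10 probe, which names that gene alone and was well above background on 7 arrays, gave 0.52 in WT and 0.89 in Lcn2-/-. The 3 Ugt1a6a probes differed in sign in both genotypes, from -0.16 to 0.12 in WT and from -0.47 to 0.38 in Lcn2-/-.

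**Figure D3:**
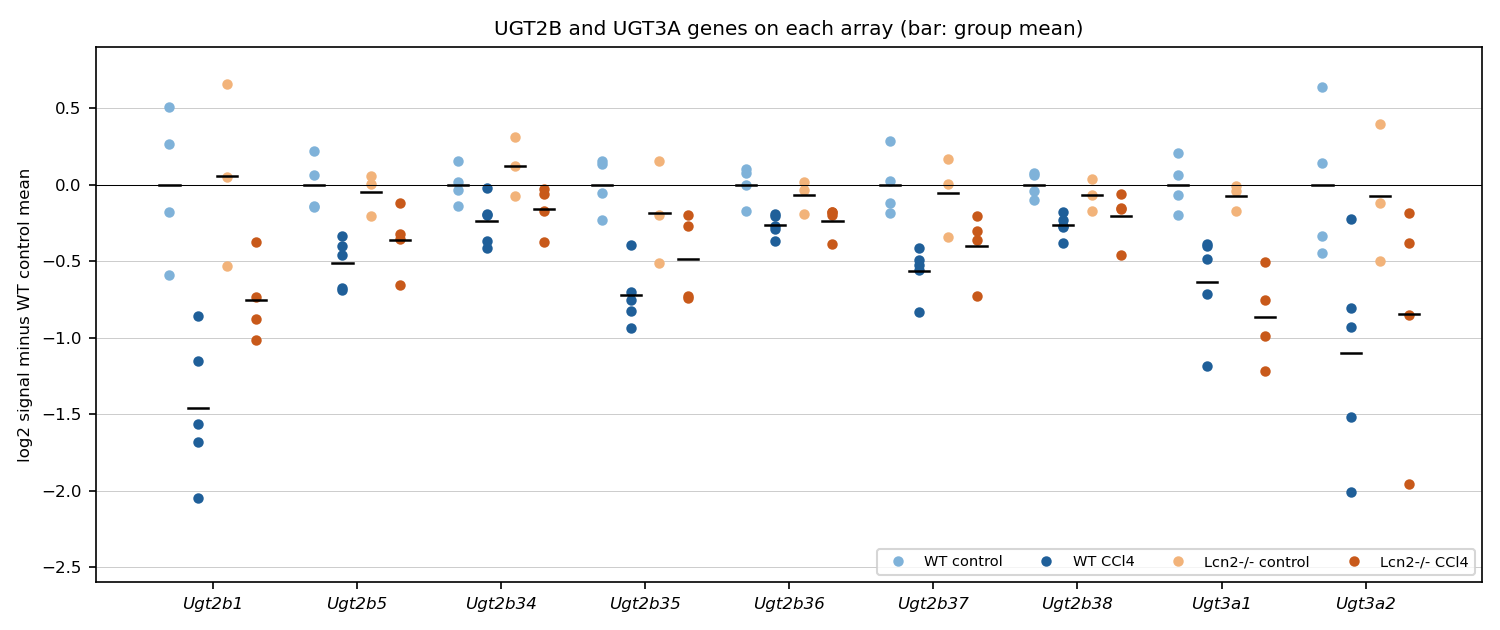
Each point is 1 array's log2 signal of a Ugt2b or Ugt3a gene minus the WT control mean of that gene, by group, with bars at the group means. WT CCl4 means lie below 0 for all 7 Ugt2b genes, from -1.46 for Ugt2b1 to -0.24 for Ugt2b34, and the Ugt3a1 points under CCl4 lie below all controls in both genotypes.

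Few glutathione transferases passed the test. Of 23 tested, Gstm6 was the member called, lower in both genotypes, and none was called higher. Over all symbols 8.64% were lower and 8.06% higher in WT, and 5.59% and 6.58% in Lcn2-/-. Without the controls numbered 3, and with array weights, Mgst2 was also called higher in each genotype, and array weights also called Gstp1 lower in WT and Gstm4 higher in Lcn2-/-. With upper-quartile scaling 6 were lower in WT (Gsta3, Gstm1, Gstm6, Gstp1, Gstp2 and Mgst1) and 3 in Lcn2-/-, where 21.1% and 13.4% of all symbols were called in either direction. The median change was -0.01 in WT and 0.13 in Lcn2-/-, and its sign moved with the scaling (-0.28 in WT with upper-quartile scaling and 0.02 with normexp background correction). The 95% interval of the change lay within 1 log2 unit of 0 for 18 of 23 genes in WT and 16 of 23 in Lcn2-/-, so a change of 2-fold or more lay outside the interval for these.

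Gstm6, of the mu class, measured 16.78, 16.61, 16.72 and 16.94 in WT control, 15.75, 16.46, 15.85, 16.03 and 15.78 in WT CCl4, 16.53, 16.42 and 16.48 in Lcn2-/- control, and 15.87, 15.87, 15.67 and 15.97 in Lcn2-/- CCl4. No CCl4 array reached the controls of its genotype. The fall was 1.73-fold in WT (-0.79, SE 0.14, adjusted p = 0.0012), held under all 29 alternatives, and 1.55-fold in Lcn2-/- (-0.63, SE 0.16, adjusted p = 0.0161). In Lcn2-/- 2 other Gstm6 probes gave -0.47 and -0.31 and did not pass, and the call was lost with the slide block (-0.91, adjusted p = 0.112) and without Lcn2-/- control replicate 1 (0.0679). In WT all 3 probes passed, from -0.83 to -0.79.

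Other classes are given as WT and Lcn2-/- log2 changes, none past the threshold. In the alpha class, whose members also reduce lipid peroxides, Gsta1 changed by 0.10 and 0.70, Gsta2 by 0.01 and 0.56, Gsta3 by 0.05 and -0.05 and Gsta4, which conjugates the lipid peroxidation product hydroxynonenal, by -0.28 and -0.30. In the mu class Gstm1 changed by 0.01 and 0.10, Gstm2 by -0.14 and 0.38, Gstm3 by -0.01 and 0.42, and Gstm5 by 0.18 and 0.27. The WT interval lay within 1 log2 unit of 0 for 3 of 4 alpha and 6 of 7 mu genes. The pi-class Gstp1 changed by -0.37 and -0.15 and Gstp2 by -0.07 and -0.18, while a second probe gave -0.73 for Gstp1 and -0.41 for Gstp2 in WT. That second Gstp1 probe also names Gstp2. The theta-class Gstt1 changed by 0.02 and -0.01, the tyrosine catabolism enzyme Gstz1 by -0.01 and 0.13, the mitochondrial and peroxisomal Gstk1 by 0.22 and 0.27, and the microsomal Mgst1 by -0.02 and -0.14. The omega-class Gsto2 changed by -0.79 and -0.39 and Gsto1 by -0.15 and 0.20. Gstm7 changed by 0.14 and 0.36, Gstt2 by -0.02 and 0.20, Gstt3 by 0.40 and 0.09 and Mgst3 by 0.15 and -0.17. Gstm4, at -0.01 and 0.58, had a second probe at -0.32 in Lcn2-/-, and the Gsta1 and Gsta2 probes were identical at 46 of 50 overlapping bases. The files place the Gstm1 probe at chr5:117082490-117082549 (mm9), while the Gstm6 probe lies at chr3:107741766-107741825, and the Gstm1 and Gstm3 probes differed among themselves in sign in WT.

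Mgst2, a microsomal form that can make leukotriene C, is singled out after its values were seen because 2 control arrays stand apart. It measured 5.92, 5.47, 7.70 and 5.91 in WT control and 5.43, 5.47 and 7.99 in Lcn2-/- control, where the first 2 were not well above background. Under CCl4 it measured 7.84, 8.14, 7.47, 7.53 and 7.58 in WT and 7.23, 7.69, 7.87 and 7.39 in Lcn2-/-. The control replicate numbered 3 of each genotype lay at the CCl4 level and the other controls below it. Neither response passed (adjusted p = 0.0608 in WT and 0.176 in Lcn2-/-). Mgst2 was called higher in both genotypes without the 2 controls numbered 3, with array weights, and without Lcn2-/- control replicate 3 alone. In WT it was also called without WT control replicate 3 and with only the compared groups fitted, making 5 of 28 alternatives in WT and 3 of 27 in Lcn2-/-. The controls numbered 3 lie nearest the CCl4 arrays, so leaving them out favours a call.

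Between genotypes under CCl4, 1 of 46 members passed (2.17%), against 0.65% of all symbols, and it was Sult5a1. Its signal was 7.68 to 10.32 on the 5 WT CCl4 arrays and 11.42 to 12.99 on the 4 Lcn2-/- CCl4 arrays, without overlap. The level was 7.17-fold higher in Lcn2-/- (2.84, SE 0.55, 95% interval 1.66 to 4.02, adjusted p = 0.0335). Within slide 2 the difference was 2.40 (adjusted p = 0.041), where genotype and slide row cannot be told apart, and with the slide column as a block it was also 2.40 (adjusted p = 0.0407). The call did not hold with no filter on dim probes (adjusted p = 0.0564), with the 2 compared groups alone (0.0682), or without WT CCl4 replicate 2 (0.0677), 4 (0.0605) or 5 (0.0604) or Lcn2-/- CCl4 replicate 3 (0.118) or 4 (0.0769), while the difference stayed between 2.40 and 3.12. Gsto1, an omega-class thiol transferase, was also separate between genotypes, at 15.18, 15.27, 15.35, 15.46 and 15.13 in WT CCl4 and 16.01, 15.68, 15.52 and 15.57 in Lcn2-/- CCl4, but did not pass (0.41, adjusted p = 0.163).

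In control livers 0 of 46 members differed between genotypes by limma, against 0.518% of all symbols. At unadjusted p under 0.05 there were 3 members, against 2019 of all 24319 symbols. Sult2b1 had the lowest p (unadjusted p = 0.0046, adjusted p = 0.218), but it was well above background on 1 of the 7 control arrays. Its difference therefore has no measured size, and the fitted value ran from -1.65 to -0.11 over 29 alternatives. Among these, array weights alone called it (adjusted p = 0.00965), where 5.16% of all symbols were called. Gstm2 measured 16.83, 16.71, 17.16 and 16.66 in WT and 15.98, 16.25 and 16.34 in Lcn2-/- (-0.65, adjusted p = 0.476). Gstt3 measured 14.07, 13.79, 14.03 and 14.31 in WT and 14.90, 14.68 and 14.50 in Lcn2-/- (0.64, adjusted p = 0.544). The Gstm2 and Gstt3 values did not overlap between genotypes, and neither difference held up after adjustment. Sult5a1 in controls overlapped (0.93, 95% interval -0.42 to 2.27, adjusted p = 0.864).

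Whether the CCl4 response differed between genotypes was tested by the interaction, in which the WT response is subtracted from that in Lcn2-/-. Of the 46 members 0 passed by limma, against 0.0535% of all symbols. At unadjusted p under 0.05 there was 1 member, against 806 of all 24319 symbols. That member was Sult5a1, with 1.91 (SE 0.84, 95% interval 0.12 to 3.71, unadjusted p = 0.0381, adjusted p = 1.00). Next came Gsto1 at 0.35 (unadjusted p = 0.0758) and Ugt2b35 at 0.42 (unadjusted p = 0.115). A smaller response of Sult5a1 or of the Ugt2b genes in Lcn2-/- liver was therefore not shown, and the interval for Sult5a1 spans sizes from near 0 to most of its WT fall.

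The rest of the conjugation pathway was read from lists of genes that supply, export and regulate it. For these and the later lists, the shares over all symbols were 8.06% higher and 8.64% lower in WT. In Lcn2-/- they were 6.58% higher and 5.59% lower. Of 11 genes of glutathione synthesis and recycling, 2 rose in each genotype, with Gpx3, the plasma glutathione peroxidase, up 7.41-fold in WT and 5.76-fold in Lcn2-/-. Of 3 genes listed for UDP-glucuronic acid supply none passed in WT and 1 fell in Lcn2-/- (Slc35d2, -0.38). Slc35d2 is a nucleotide sugar transporter, and its part in that supply was not tested. Of 7 genes of PAPS supply 1 rose in WT, the PAPS synthase Papss2 (0.57, adjusted p = 0.0132), and none passed in Lcn2-/-. Of 4 enzymes listed for deconjugation 2 rose in both genotypes, the lysosomal beta-glucuronidase Gusb (1.03 and 0.71) and the arylsulfatase Arsb (0.51 and 1.05).

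Of 5 conjugate exporters, Abcc3, which returns glucuronides to blood, fell in both genotypes (-1.42 and -0.79), and in WT Abcg2 also fell (-0.41) and Abcc4 rose (0.79). Of 11 regulators, Nr1i3, the receptor CAR that induces many of these enzymes, fell 2.52-fold in WT and 2.05-fold in Lcn2-/-. In WT the aryl hydrocarbon receptor Ahr also fell (-0.56) and Nfe2l2, which encodes NRF2, rose (0.68). RNA level does not measure the activity of these regulators, and their part in the transferase changes was not tested. Of 8 other conjugating enzymes 1 rose in each genotype, the arsenic methyltransferase As3mt in WT (0.88) and the glycine methyltransferase Gnmt in Lcn2-/- (0.68).

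Of 9 relatives with other roles, 2 rose and 1 fell in WT and 2 rose in Lcn2-/-. Hpgds, the sigma-class transferase that makes prostaglandin D, rose 3.54-fold in WT (adjusted p = 2.4e-04) and also passed in Lcn2-/- (adjusted p = 0.0013), where 1 of 3 controls was well above background. Chst11, which sulfates chondroitin in the extracellular matrix, rose in both genotypes. By the nominal bound used for Sult2a1 it rose at least 1.52-fold in Lcn2-/-, where no control was well above background. No fold is given in WT, where 1 of 4 controls was. Ltc4s, the leukotriene C synthase, fell 2.51-fold in WT. The list's median change was 0.75 in WT and 0.72 in Lcn2-/-, beside -0.03 and -0.02 over all symbols.

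Sult2a1 is known as a female-predominant gene of adult mouse liver, and both sex-biased lists moved under CCl4 in these male livers. Of 8 male-predominant genes 7 fell in WT and 4 in Lcn2-/-, among them the steroid dehydrogenase Hsd3b5 (38.0-fold and 12.7-fold lower) and the organic anion transporter Slco1a1 (21.3-fold and 11.8-fold lower). Of 9 female-predominant genes 7 rose in WT and 4 in Lcn2-/-, among them the fatty acid hydroxylase Cyp4a14 (19.7-fold and 42.8-fold) and the cytochrome P450 Cyp3a44 (12.2-fold and 7.87-fold). The median change of the male list was -2.66 and -1.28, and that of the female list 3.19 and 2.58, in WT and Lcn2-/-. With the slide block 6 male-predominant genes fell and 3 female-predominant genes rose in WT, and 2 and 1 passed in Lcn2-/-. That block called 5.33% of all symbols in WT and 1.75% in Lcn2-/-. Cyp7b1, an oxysterol hydroxylase of the male list, was 4.02-fold higher in Lcn2-/- than in WT under CCl4 (adjusted p = 0.0398), and did not pass within slide 2. Neither list was used to choose the transferases, but both lists were chosen with earlier results of these data known. Their part in the changes of Sult2a1 and Sult5a1 was not tested.

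**Figure D4:**
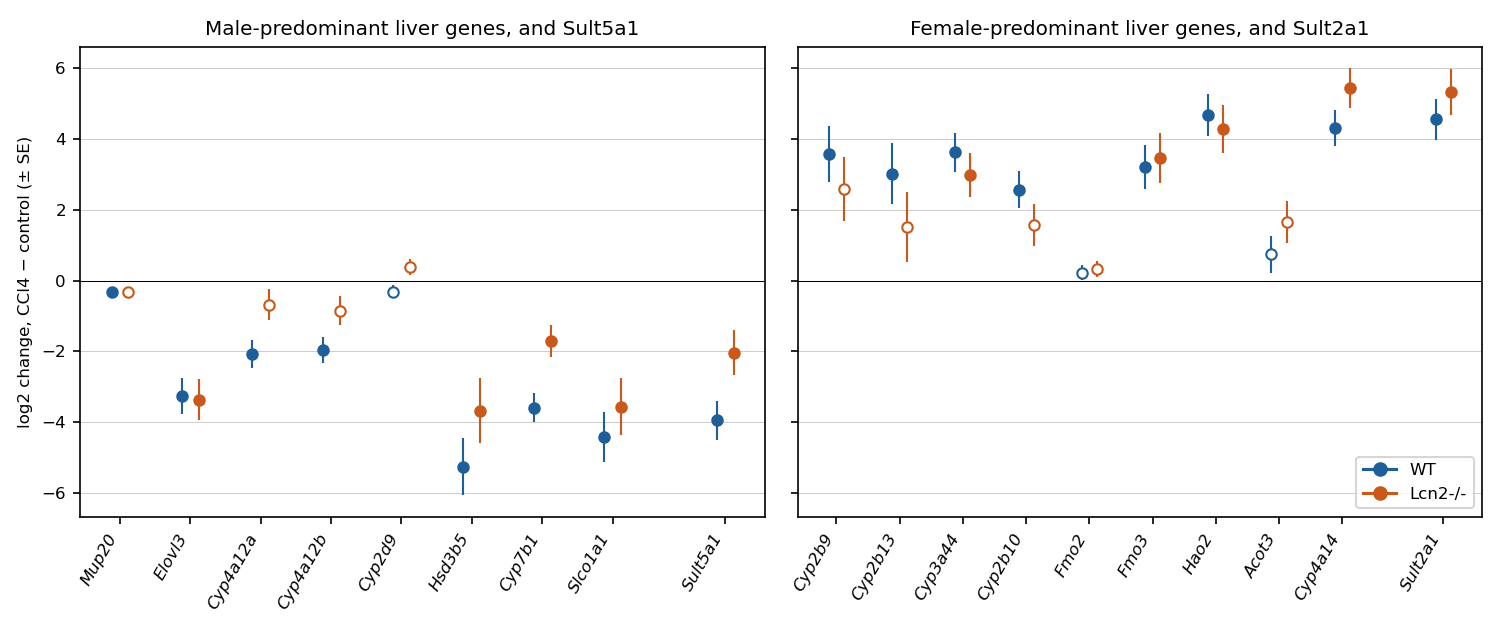
Points are log2 changes under CCl4 with SE for male-predominant (left) and female-predominant (right) liver genes in WT and Lcn2-/-, filled where adjusted p was under 0.05, with Sult5a1 set beside the first list and Sult2a1 beside the second for comparison only. Male-predominant genes lie at or below 0 except Cyp2d9 in Lcn2-/-, and female-predominant genes lie above 0. Nothing here shows Sult5a1 to be male-predominant. The male list spans -5.25 to -0.31 in WT and -3.67 to 0.38 in Lcn2-/-, so the place of Sult5a1 within that range says little. The position of Sult2a1 rests on controls at background, for which the arrays give only a bound.

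Markers of cell types in the tissue were examined beside the transferases. None of 7 hepatocyte markers passed in either genotype, and their summed signal was 2317790 to 2423660 in WT control, 2291120 to 2554720 in WT CCl4, 2367880 to 2447890 in Lcn2-/- control and 2157830 to 2437930 in Lcn2-/- CCl4. Of 8 pericentral hepatocyte markers 3 fell in both genotypes (Glul, Oat and Slc1a2), with a sum of 644266 to 688512 in WT control, 429487 to 492867 in WT CCl4, 636756 to 675574 in Lcn2-/- control and 393318 to 548785 in Lcn2-/- CCl4. Pericentral hepatocytes are the cells that activate CCl4 and express many conjugating enzymes.

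Of 8 stellate cell and fibroblast markers 7 rose in WT and 6 in Lcn2-/-, with a sum of 101865 to 198148 in WT control, 232727 to 513627 in WT CCl4, 98039 to 114483 in Lcn2-/- control and 227735 to 314566 in Lcn2-/- CCl4. Each of the markers in these 3 lists was well above background on at least 1 array. Among other cell types, 1 of 6 cholangiocyte markers rose in both genotypes, as did 2 of 7 macrophage markers and 1 of 5 endothelial markers (Lyve1). Of 5 periportal markers 2 rose in WT and 1 in Lcn2-/-. In WT 1 macrophage (Clec4f), 1 endothelial (Stab2), 1 of 5 lymphocyte (Cd3e) and 1 of 3 erythroid (Alas2) markers passed as lower, and 1 of 2 pancreas markers (Amy2a5) as 2.23-fold higher; none of these passed in Lcn2-/-, and the interaction passed for none. The pericentral markers called lower and the stellate markers called higher were measured on the same arrays as the transferases. Their part in the transferase changes was not tested.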

How the data were processed

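The scanner files deposited by the authors hold 1 array each as linear spot intensity from Agilent Feature Extraction 10.7.3.1, not normalized between arrays. A second deposited file holds the authors' log2 values. It equals the quantile-normalized log2 of median signal minus median local background within 0.05 for 99.857% of values and served as an alternative.

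Log2 processed signal of 59305 gene spots was quantile normalized, without spots marked as outliers. Spots of a probe were averaged, giving 55681 probes, and 121 not measured on all arrays were dropped. A probe had to be well above background on 3 or more arrays (33014 passed), and the probe with the highest mean stood for its symbol, giving 24319 symbols. Differences were fitted with limma 3.58.1 in R 4.3.3 as 1 model of 4 groups with 5 contrasts, with Benjamini-Hochberg adjustment over all symbols and a threshold of 0.05. The fit was tested on simulated data. Probe positions are on mm9; exon or intron was not analysed. The number of arrays limits the precision.

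Members follow a rule on gene names, and members and gene lists were chosen with earlier results of these data known. Array values are given, per superfamily and response, for up to 4 raised and 4 lowered members with the largest change past the threshold, and for members past it in the genotype contrasts and interaction, or the 3 with the lowest p. Same-numbered control arrays deviated together (r = 0.234, 0.368 and 0.552 across symbols), so replicate numbers pair the controls; nothing in the labels says what they share. These pairs also share a column of slide 1, and number and column cannot be told apart there. Numbers did not pair the samples in the other comparisons (r from -0.221 to 0.252). Under CCl4 the WT and Lcn2-/- arrays in 1 column of slide 2 carry different numbers and also deviated together (r = 0.163, 0.218, 0.137 and 0.64). Alternatives covered scaling, background correction, the deposited table, filters, probe choice, replicate and slide blocks, single slides, array weights, the samples fitted and leaving out arrays. Leaving out probes in the top 20 array rows, and the slide column as a block for the genotype contrasts and interaction, were added after seeing the data.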

Additional observations from a re-analysis of the deposited data

Results flagged for a closer look

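Among 42 groups of 14 transferases chosen by the naming rule, the lowest array stood apart from the rest of its group in 2, where about 1 in 20 such groups does so by chance. Sult5a1 in WT CCl4 replicate 1 was at 7.68 against 9.68 for the nearest array (gap 0.759 of the group's range), and this was the CCl4 array hybridised on slide 1. Sult2a1 in WT control replicate 4 was at 2.91 against 2.95 (gap 0.872 of the range), with none of the 4 arrays well above background.

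Sult3a1, a sulfotransferase of low signal, was not tested because it was well above background on 1 array. With no filter it was called higher under CCl4 in Lcn2-/-. That array was Lcn2-/- CCl4 replicate 3, with a log2 signal of 5.58, where the controls of both genotypes lay between 2.92 and 3.99, the WT CCl4 arrays between 3.25 and 4.46 and the Lcn2-/- CCl4 arrays between 4.01 and 5.58.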

How the results depend on the processing

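In WT the count of called transferases was 11, and it was 21 with upper-quartile scaling (21.1% of all symbols called), 19 with array weights (28.8%), 5 with the slide block (5.33%) and 5 within slide 1 (2.89%). In Lcn2-/- it was 6, and 3 with the slide block (1.75%) and 9 with array weights (28.7%). Under CCl4 between genotypes it was 1 (0.65% of all symbols called). It was 0 with no filter (0.352%), with the replicate block (0.358%) and with the compared groups alone (0.387%). In controls it was 0, and 1 with array weights (Sult2b1, where 5.16% of all symbols were called). The interaction gave 0 under every setting run. Leaving out 1 array at a time gave 6 to 13 in WT (6 without WT control replicate 1, where 10.2% of all symbols were called). In Lcn2-/- it gave 1 to 7 (1 without Lcn2-/- control replicate 1, with the share of all symbols given above). Between genotypes under CCl4 it gave 0 to 1, and in controls and interaction 0. Each of the 14 transferases kept its sign in the comparison for which the naming rule chose it. Values given for other comparisons did not always (in Lcn2-/- Gstt3 kept its sign in 24 of 28 alternatives and Sult6b1 in 25 of 27, and in WT Gstm3 in 19 of 29 and Gstm4 in 18). Within slide 1 a single CCl4 array is assumed to vary like the controls. The pairing of controls by replicate number changed no call in controls, where the replicate block and the slide column block, chosen after seeing the data, gave 0. In the other comparisons, where numbers did not pair the samples, the replicate block gave 9 in WT, 4 in Lcn2-/- and 0 under CCl4. The same block called 15.5%, 12.2% and 0.358% of all symbols there, and Sult5a1 under CCl4 was 2.91 (adjusted p = 0.0862). Signals at background (Sult2b1, Sult6b1 and control Sult2a1) limit what the arrays can resolve.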
